A study of Mus musculus with 6 samples.

Results

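The set described here holds 35 genes of the cell cycle and of DNA replication, listed by gene symbol. The list was drawn up with earlier results of these data known. They fall into 15 genes of the G1/S transition and of replication and 20 genes of mitosis. All probes annotated with these symbols were taken, 67 in all, from a bead array that names 19039 genes. Of the 35 genes 33 have a named probe, and 29 were detected well enough to be tested, beside 10836 tested genes in all. The brightest probe of each of these 29 was above background on all 6 arrays. Ccnb1 and Mki67 enter only the promoter counts below, and their expression is not analysed here.

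The tumours came from 4T1, a mouse mammary carcinoma line of the BALB/c strain, whose cells had been stably transduced with a lentivirus for mouse uPA, the urokinase-type plasminogen activator, or with the virus carrying no gene. The cells were placed in a mammary fat pad of female BALB/c mice aged 8 to 10 weeks, and total RNA was taken from the tumours on day 7. Each group held 3 arrays, by their titles empty vector or uPA overexpression, all read on an Illumina MouseWG-6 v2.0 BeadChip. All tumours thus carried a lentivirus. Neither the promoter of the transgene nor the number of transduced clones is given in the sources used here.

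Some facts of the arrays bear on all values below. The mean log2 intensity of Plau, the gene for uPA, was 12.94 ± 0.23 (SD, n = 3) with empty vector and 12.14 ± 0.18 (SD, n = 3) under the title uPA overexpression, so it fell by 0.80 (adjusted p = 0.0326 by limma), against the label. Directions below are those of the titles, and "labelled uPA" stands for the arrays titled uPA overexpression. Of 12 epithelial markers 10 were tested and all 10 were above background on every array, while Epcam and Krt5 were not detected on enough arrays to be tested. From 43.6% to 44.4% of probes were detected on the empty vector arrays and from 44.8% to 46.1% on those labelled uPA, without overlap. The labels do not say that each tumour came from its own mouse, so p-values measure only the spread between these tumours, and the number of arrays limits the precision.

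A dividing cell commits to replication when cyclin E with its kinase and the E2F transcription factors switch on the genes of S phase. The MCM helicase is loaded at origins by Cdc6 and Cdt1, the forks are then run with PCNA and a supply of deoxynucleotides, and a later wave of genes builds the spindle and separates the chromosomes. E2F proteins bind the promoters of many genes of the first wave. Many genes of the second wave carry an element called CHR, the cell cycle genes homology region, often with CCAAT boxes bound by the factor NF-Y. In a tumour these transcripts come from every dividing cell, cancer cell or host cell. In RNA from whole tumours, fewer cells of a type and less RNA per cell cannot be told apart.

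The division of the set into G1/S and mitotic genes could be seen in their promoters, which the choice of members did not use. RefSeq promoters of the assembly GRCm38.p6, 250 bases before to 50 bases after the start of a gene, were matched by symbol to 28 of the 35 members. The CHR letters TTTGAA, on either strand, stood in 10 of 15 mitotic promoters and in 1 of 13 G1/S promoters, against 20.2% of 27025 genes with a promoter in the same table. E2F letters, which were TTCCCGC and also TTGGCGC and also TTCGCGC, on either strand, stood in 7 of 13 G1/S promoters and 3 of 15 mitotic promoters, against 9.2% of all genes. The letters CCAAT, on either strand, were in 8 of 13 and 13 of 15, against 41.1%, and all 10 mitotic promoters with CHR letters also held CCAAT. A match is a description of the letters and not proof of a site, and its absence says only that these letters are not in this window.

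Wider lists of cell cycle genes that are not members showed a like division of promoter letters. E2F letters stood in 27 of 47 promoters of the replication lists and 19 of 77 of the mitosis lists, and CHR letters in 9 of 47 and 41 of 77. The promoters of 4 members are shown because they carry these letters, taking in each class the 2 genes of smallest p whose 150 bases before the start hold the E2F or the CHR letters. Capitals mark every match of the 3 motifs, read 5′ to 3′ on the strand of the gene.
Mcm6, chr1:128359706-128359855, minus strand: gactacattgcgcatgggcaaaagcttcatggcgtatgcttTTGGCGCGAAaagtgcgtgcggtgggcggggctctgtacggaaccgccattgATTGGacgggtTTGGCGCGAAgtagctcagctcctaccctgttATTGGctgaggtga
Cdc6, chr11:98908001-98908150, plus strand: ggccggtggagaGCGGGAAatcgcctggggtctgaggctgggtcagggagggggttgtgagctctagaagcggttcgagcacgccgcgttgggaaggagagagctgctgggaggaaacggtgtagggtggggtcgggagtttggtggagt
Cdk1, chr10:69352913-69353062, minus strand: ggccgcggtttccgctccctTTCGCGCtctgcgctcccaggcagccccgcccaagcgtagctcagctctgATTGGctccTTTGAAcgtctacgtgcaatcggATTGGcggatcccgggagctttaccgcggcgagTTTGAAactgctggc
Top2a, chr11:99024190-99024339, minus strand: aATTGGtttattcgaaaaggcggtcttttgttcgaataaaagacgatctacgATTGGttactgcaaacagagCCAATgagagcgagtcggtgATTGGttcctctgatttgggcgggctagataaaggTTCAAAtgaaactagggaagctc

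In the Mcm6 promoter the E2F letters occur in 2 places, and in each a match on one strand overlaps a match on the other. The Cdk1 promoter holds E2F letters as well as 2 CHR matches, at 71 to 66 and at 15 to 10 bases before the start, each downstream of a CCAAT match on the opposite strand. Top2a has 4 CCAAT matches and 1 CHR match, 23 to 18 bases before the start.

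The main comparison asks whether genes of division differ between tumours labelled uPA and empty vector tumours. Ccne2, which encodes cyclin E2, rose in the tumours labelled uPA, and it was the only one of the 29 tested members to pass the test in either direction. The share of 3.45% stands beside 5.41% of all tested genes called in either direction, 2.31% called higher and 3.1% called lower (limma, adjusted p under 0.05 over 10836 genes). The study's own rule asks for more than 1.5-fold with p under 0.05 before adjustment, and no test is named for it. With the limma p and the values used here, Ccne2 was again the only member to meet it. Of all tested genes 7.53% did (3.17% higher and 4.37% lower). In the processed values the authors deposited, Ccne2 differed by 0.47 in log2, under 1.5-fold, and so did not meet the rule there. With no member called lower, 5 members had an unadjusted p under 0.05, Ccne2, Mcm3, Tyms and Aurkb above 0 and Ccna2 below, against 21.3% of all tested genes (9.96% higher and 11.4% lower). The groups did not overlap for 4 members above 0 and 1 below, against 14.2% and 15.5% of all tested genes. The plot of differences with their intervals shows each member.

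**Figure D1:**
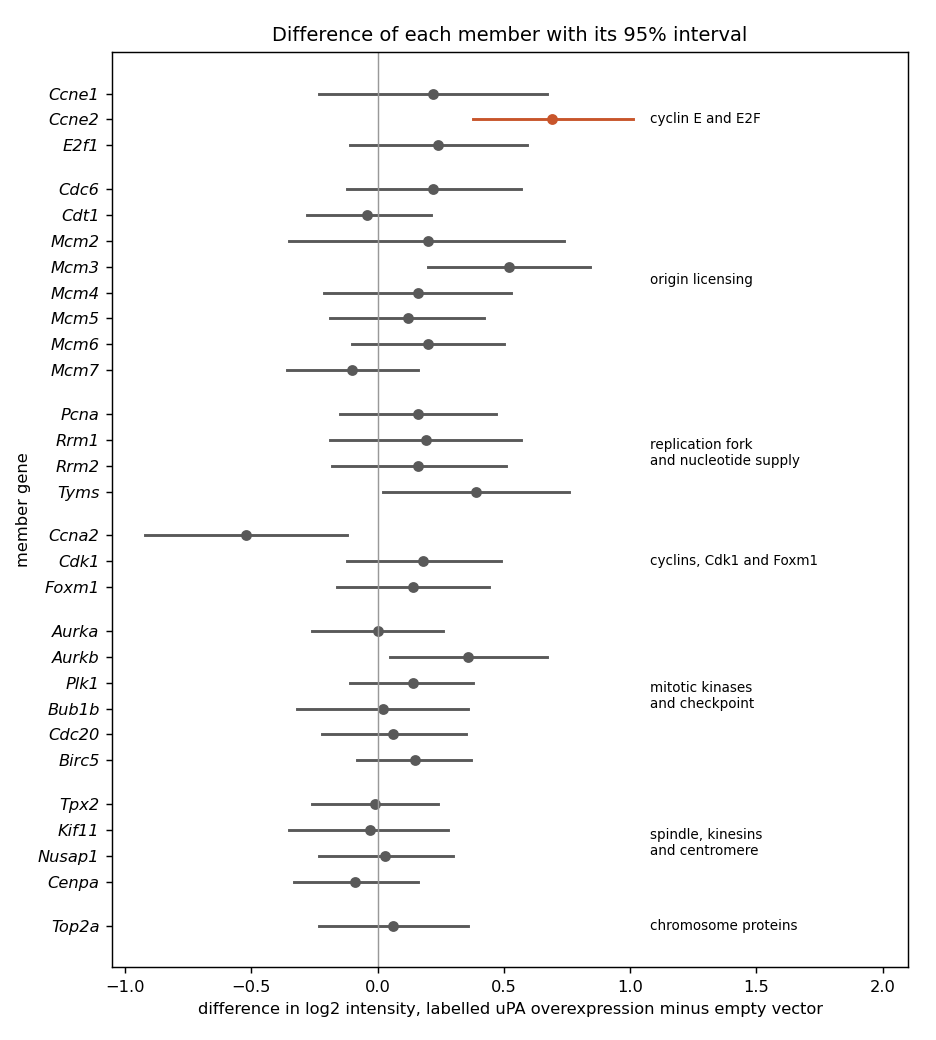
Difference in log2 intensity, labelled uPA overexpression minus empty vector (x axis), for the 29 tested members (y axis, ordered by role), with points for the limma estimate and bars for its 95% interval. Ccne2, in orange, is the member with an adjusted p under 0.05, at 0.69, and the intervals of 24 other members cross 0.

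The first group, cyclin E and E2F, holds the switch into S phase. Ccne2 read 6.78, 6.47 and 6.71 in log2 intensity on empty vector arrays 1, 2 and 3, and 7.17, 7.37 and 7.51 on the arrays labelled uPA 1, 2 and 3. Its groups did not overlap, as was so for 29.7% of all tested genes. Its difference was 0.69 (SE 0.135, 95% interval 0.38 to 1.01, adjusted p = 0.0339 by limma), a fold of 1.62. Ccne2 has 1 probe, with group means of 6.65 and 7.35. Of the tested members only Ccna2 and Ccne1 had lower means in each group. The call was lost when any single array was left out, with adjusted p from 0.0501 without empty vector 2 to 0.112 without the array labelled uPA 3. Leaving out empty vector 1 or 3 gave 0.0810 or 0.0970, and leaving out uPA-labelled array 1 or 2 gave 0.0664 or 0.0950. The difference itself stayed between 0.60 and 0.78 in these 6 fits. Skipping the background correction brought it to 0.48, and the processed table the authors deposited gave 0.47, both still called.

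Ccne1, the gene of the other E-type cyclin, did not pass the test. It read 5.86, 6.38 and 6.02 in the empty vector tumours and 6.11, 6.17 and 6.64 in those labelled uPA, so the groups overlapped. Its difference was 0.22 with a 95% interval from -0.23 to 0.67, and whether it differed from that of Ccne2 was not tested. E2f1, an activator of S-phase genes, read 10.22, 10.10 and 9.88 against 10.10, 10.29 and 10.53, with a difference of 0.24 and an interval from -0.11 to 0.59. Without the array labelled uPA 3 the differences were 0.05 for Ccne1 and 0.13 for E2f1.

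**Figure D2:**
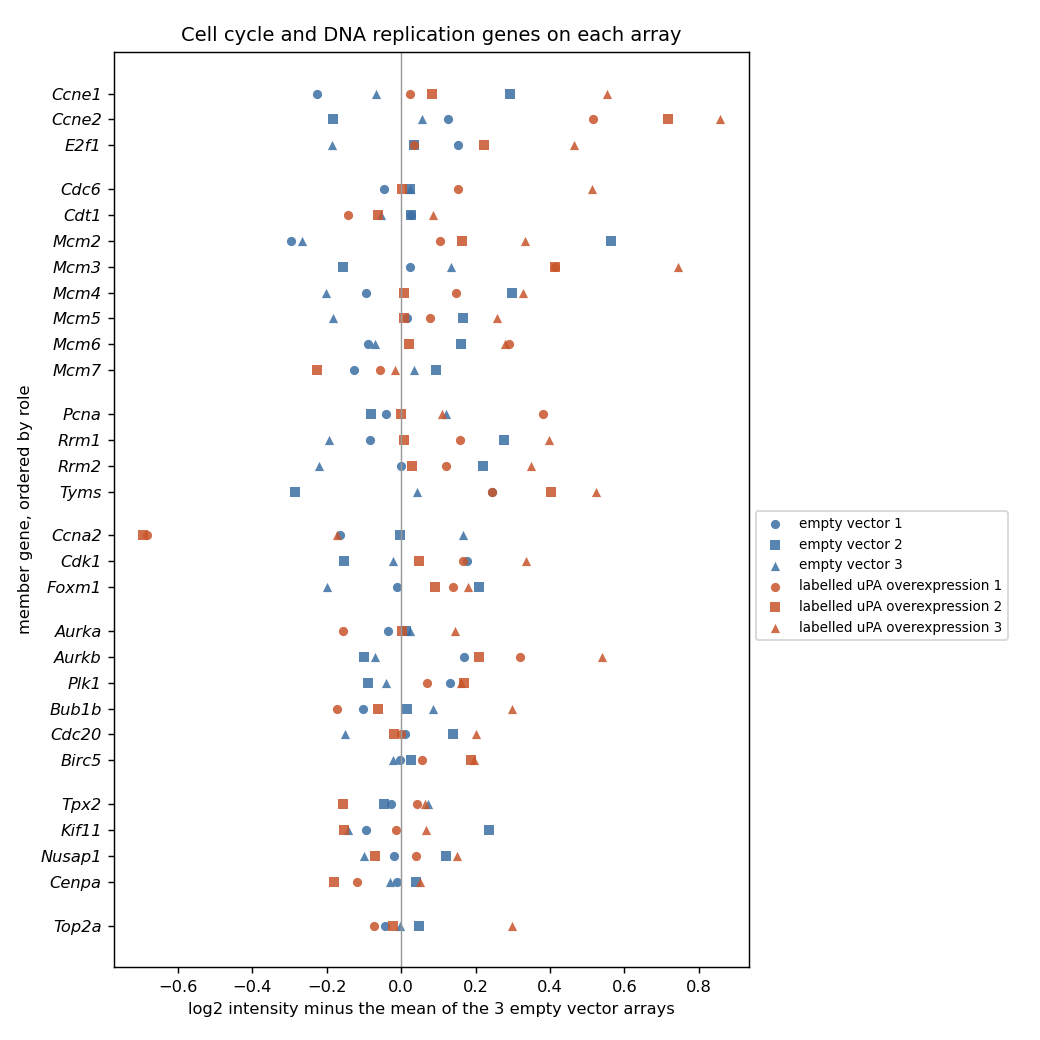
Log2 intensity of each tested member (y axis, ordered by role) on each array, as the distance from the mean of the 3 empty vector arrays (x axis). Colours stand for the groups and shapes for the replicate numbers, and the orange triangles of the array labelled uPA overexpression 3 are the highest of their group for 26 of 29 members.

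Origin licensing loads the MCM ring onto DNA before S phase. Mcm3, a subunit of that ring, read 8.14, 7.96 and 8.25 in the empty vector tumours and 8.53, 8.53 and 8.86 in those labelled uPA, with no overlap. Its difference of 0.52 (SE 0.136, 95% interval 0.20 to 0.84) missed the threshold with an adjusted p of 0.0762 by limma. It passed in 5 of 10 alternatives that used every array, with adjusted p of 0.0443 without background correction (difference 0.45), 0.0480 with offset 50 (0.47), 0.0451 in the deposited processed values (0.43), 0.0482 with array weights (0.49) and 0.0441 with a prior both trended and robust (0.52). With 1 array left out Mcm3 was never called, with adjusted p from 0.12 to 0.214 by limma and differences from 0.41 to 0.59. Ccne2 and Mcm3 were the only members whose call depended on the alternative.

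None of the other 5 ring subunits passed the test, and whether they differed from Mcm3 was not tested. Mcm6 read 10.57, 10.82 and 10.59 against 10.95, 10.68 and 10.94, a difference of 0.20, and Mcm4 read 12.01, 12.40 and 11.90 against 12.25, 12.11 and 12.43, a difference of 0.16. The other probes of Mcm4 gave 0.55 and 0.48 and the mean of all its probes 0.40, none called, while those of Mcm6 gave 0.57, 0.20 and -0.02. The Mcm4 probes at 0.55 and 0.48 were above background on only 1 and 2 empty vector arrays, and the Mcm6 probe at 0.57 on 2. Each was above background on all 3 arrays labelled uPA and passed the filter only through them. No rise is read from these probes or from the Mcm4 mean. Mcm2, which had the widest spread of all members, read 8.94, 9.80 and 8.97 against 9.34, 9.40 and 9.57, so that empty vector 2 alone was above every array labelled uPA. Without empty vector 2 the difference of Mcm2 was 0.48 in place of 0.20, and still not called (adjusted p = 0.0619 by limma). Mcm5 differed by 0.12. Mcm7 differed by -0.10 at its brightest probe (ILMN_1213616) and by 0.50 at its other probe (ILMN_2673889, adjusted p over probes 0.148), so the direction for this gene depended on the probe. Of the loaders, Cdc6 read 8.63, 8.70 and 8.70 against 8.83, 8.68 and 9.19, a difference of 0.22, and Cdt1 differed by -0.04. Without the array labelled uPA 3 the differences were 0.08 for Cdc6, 0.08 for Mcm4 and 0.05 for Mcm5. Without empty vector 3 they were 0.23, 0.06 and 0.02, and that of Mcm2 was 0.07.

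All 4 fork and nucleotide genes lay above 0 and none was called. With 1 array left out the differences ran from 0.24 (without empty vector 2) to 0.51 for Tyms, from 0.05 (without the array labelled uPA 1) to 0.24 for Pcna, from 0.08 (without the array labelled uPA 3) to 0.33 (without empty vector 2) for Rrm1 and from 0.05 (without empty vector 3) to 0.27 (without empty vector 2) for Rrm2. Tyms, the enzyme that makes thymidylate, read 10.92, 10.39 and 10.72 in the empty vector tumours and 10.92, 11.08 and 11.20 in those labelled uPA. Its difference was 0.39 (95% interval 0.02 to 0.76, adjusted p = 0.219 by limma), with other probes between -0.12 and 0.29. Pcna, the sliding clamp of DNA polymerase, read 7.83, 7.79 and 7.99 against 8.25, 7.87 and 7.98, and differed by 0.16. The subunits of ribonucleotide reductase, which makes deoxynucleotides, also overlapped between the groups at their brightest probes, Rrm1 with 9.30, 9.66 and 9.19 against 9.54, 9.39 and 9.78 (difference 0.19) and Rrm2 with 8.38, 8.60 and 8.16 against 8.50, 8.41 and 8.73 (difference 0.16). The other tested Rrm2 probe (ILMN_2714565) gave 0.41 without overlap between the groups (7.91, 7.96 and 7.77 against 8.28, 8.23 and 8.35) and an adjusted p over probes of 0.0833 by limma.

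Among the mitotic genes none passed the test, and 1 stood out below 0. Ccna2, the gene of cyclin A2, read 5.75, 5.91 and 6.08 in the empty vector tumours and 5.23, 5.22 and 5.74 in those labelled uPA. Its only probe had the lowest mean of the 29 tested members in each group. These values lie not far above the 4.43 to 4.85 of the undetected Cenpe probe. The groups did not overlap by a margin of only 5.74 against 5.75, and the difference of -0.52 (95% interval -0.92 to -0.12) had an adjusted p of 0.143 by limma. Skipping the background correction gave -0.24, the authors' processed table also -0.24, and offset 50 gave -0.30. Its partner Cdk1, the kinase that drives entry into mitosis, read 11.20, 10.87 and 11.00 against 11.19, 11.07 and 11.36, a difference of 0.18. Foxm1, a transcription factor of the mitotic genes, read 8.20, 8.42 and 8.01 against 8.35, 8.30 and 8.39, a difference of 0.14.

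The mitotic kinases and checkpoint genes lay at or slightly above 0. Aurkb, the kinase of the chromosomal passenger complex, read 9.47, 9.20 and 9.23 against 9.62, 9.51 and 9.84, without overlap, and differed by 0.36 (95% interval 0.05 to 0.67, adjusted p = 0.178 by limma). Birc5, which encodes survivin, another subunit of that complex, read 10.90, 10.93 and 10.88 against 10.96, 11.09 and 11.10, again without overlap, and differed by 0.15 (adjusted p = 0.437 by limma). Its 3 probes agreed closely, at 0.15, 0.15 and 0.18. Plk1, a kinase of the spindle poles, read 10.26, 10.04 and 10.09 against 10.20, 10.30 and 10.29, a difference of 0.14. Cdc20, the activator of the anaphase-promoting complex, read 10.99, 11.12 and 10.83 against 10.98, 10.96 and 11.18, a difference of 0.06, and its other probes gave 0.06, 0.07 and 0.37. The spindle pole kinase gene Aurka and the checkpoint gene Bub1b differed by 0.00 and 0.02, and the other Bub1b probe gave 0.20.

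Spindle, centromere and chromosome genes had differences between -0.09 and 0.06, with no call. Tpx2, a spindle assembly factor, read 8.41, 8.39 and 8.51 against 8.48, 8.28 and 8.50, a difference of -0.01 with a 95% interval from -0.26 to 0.24. Kif11, the motor that pushes the spindle poles apart, read 7.79, 8.12 and 7.74 against 7.87, 7.73 and 7.95, and Nusap1, a microtubule-binding protein of the spindle, read 10.95, 11.09 and 10.87 against 11.01, 10.90 and 11.12, with differences of -0.03 and 0.03. Cenpa, the histone variant of centromeres, read 13.36, 13.41 and 13.34 against 13.25, 13.19 and 13.42, a difference of -0.09, and its other probe gave 0.18. Top2a, which untangles replicated DNA, read 10.61, 10.70 and 10.65 against 10.58, 10.63 and 10.95, a difference of 0.06, and its other probes gave 0.03 and 0.05.

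Not every mitotic gene could be tested. The probes of Ccnb2, Bub1 and Kif20a were not well above background on any of the 6 arrays, and neither was that of Cenpe, so these 4 genes have no fold.

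The intervals, those of each gene's brightest probe, set limits on what went unseen at that probe. For 21 of the 28 members that did not pass the test, the 95% interval lay wholly within a fold of 1.5 in either direction, and 12 of these 21 were among the 14 tested mitotic genes. Over all 28 the intervals ran from -0.92 to 0.84 on the log2 scale. Other probes are not covered by these limits, and the other tested probes of Mcm7 and Rrm2 gave 0.50 and 0.41.

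The G1/S and replication genes were then set beside the mitotic genes. Of 15 G1/S members 13 lay above 0, with a median difference of 0.20 and single values from -0.10 to 0.69. Of 14 tested mitotic members 9 lay above 0, with a median of 0.05 and values from -0.52 to 0.36. Over all tested genes 49.5% lay above 0 and the median was 0.00. The mitotic median was thus 0.15 below the G1/S median, and 0.10 to 0.18 below it when single arrays were left out. These medians carry no test, and genes that share an array are not independent of each other.

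The medians did not separate the tumours by group. Centred on each gene's mean over the 6 arrays, the G1/S median was -0.16, 0.06 and -0.18 on empty vector arrays 1, 2 and 3 and 0.04, -0.05 and 0.27 on the arrays labelled uPA 1, 2 and 3. Empty vector 2 was thus above 2 of the 3 arrays labelled uPA. The mitotic median was -0.03, 0.02 and -0.10 against -0.01, -0.05 and 0.12, and the groups overlapped again. On empty vector 2 the mitotic median lay below the G1/S median, while on the array labelled uPA 2 both were -0.05. The gap between the medians thus overlapped between the groups as well, with a pooled SD within groups of 0.0808. Without the array labelled uPA 3 the G1/S median difference was 0.08 in place of 0.20 and the mitotic one -0.04 in place of 0.05. With 75th percentile scaling they were 0.13 and -0.03, where the median of all tested genes also moved, from 0.00 to -0.05.

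**Figure D3:**
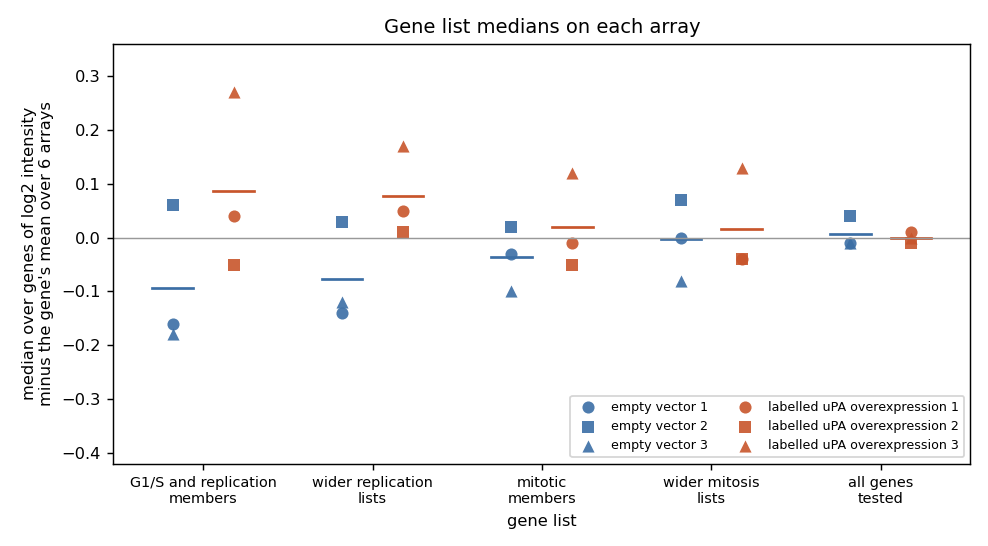
Median over the genes of each list of log2 intensity minus the gene's mean over the 6 arrays (y axis), for 5 gene lists (x axis), with a symbol for each array and a line for the mean of each group. For the G1/S and replication members the array labelled uPA overexpression 3 stands highest at 0.27 and empty vector 2, at 0.06, lies above the other arrays labelled uPA.

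One array labelled uPA stood at the top of its group for most members. The array labelled uPA 3 was the highest of its group for 26 of 29 members, 13 of 15 G1/S and 13 of 14 mitotic genes, against 32.3% of all tested genes. Empty vector 2 was the highest of its group for 17 of 29 members (58.6%), not far above the 47.6% of all tested genes. This held for 10 of 15 G1/S genes, 7 of 14 mitotic genes and 5 of the 6 MCM genes. Empty vector 2 was also the lowest of its group for 8 of 29 members, against 3593 of 10836 tested genes. Among these 8, Ccne2, Mcm3 and Tyms lay 0.28, 0.24 and 0.43 below the mean of the other empty vector arrays, and the others were Pcna, Cdk1, Aurkb, Plk1 and Tpx2. Probes of 1 gene could place this array at opposite ends. Of 13 members with several tested probes 6 had empty vector 2 highest of its group by one probe and lowest by another, and the same held for 31.5% of 4349 genes with several tested probes, against 19.9% to 26.1% for each of the other 5 arrays. The array labelled uPA 2 had as many such members, 6 of 13, and the array labelled uPA 3 had 0. The part of this in the differences was not tested.

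Other genes of the cell cycle were taken from lists of names, also chosen with earlier results of these data known. Of 149 tested genes on 10 such lists 1 rose and 0 fell, a share of 0.671% against 5.41% of all tested genes. The riser was Cdkn2c, whose product p18 inhibits the cyclin D kinases Cdk4 and Cdk6. It read 10.00, 9.56 and 9.91 in the empty vector tumours and 10.51, 10.41 and 10.42 in those labelled uPA, a difference of 0.63 (SE 0.136, adjusted p = 0.0446 by limma). Its groups did not overlap. The call was lost with 75th percentile scaling (adjusted p = 0.0531), without a filter (0.0546), with the mean of all its probes (0.0822) and when any array except empty vector 2 was left out (0.0812 to 0.144). The Cdk inhibitors did not share a direction, with 3 of 6 tested above 0. Cdkn2b, whose product p15 inhibits the same kinases, differed by -0.86 (adjusted p = 0.130 by limma). Cdkn1a, which encodes p21, differed by -0.37 (adjusted p = 0.284 by limma), Cdkn2d by 0.17, Cdkn1c by -0.05 and Cdkn1b by 0.03. None of these was called. The study's rule, with the limma p and the values used here, was met by Cdkn2c above 0 and Cdkn2b below. No other of the 149 genes met it, against 3.17% of all tested genes higher and 4.37% lower.

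Pooled over their lists, the genes of replication and of mitosis gave these counts, whose difference was not tested. Of 47 tested genes of origin firing, fork and nucleotide supply, 39 lay above 0 with a median of 0.13 and 0 were called. Of 74 tested genes of mitotic entry, kinetochore, spindle, anaphase and chromosome structure, 39 lay above 0 with a median of 0.02 and 0 were called. Without the array labelled uPA 3 these counts were 32 of 47 and 29 of 74. The single lists overlapped, with 9 of 14 genes above 0 for origin recognition and firing (median 0.03), 25 of 28 for fork factors (0.16) and 5 of 5 for nucleotide supply (0.22), beside 6 of 8 for mitotic entry (0.08), 13 of 21 for the kinetochore (0.06), 7 of 20 for the spindle (-0.03), 4 of 11 for the anaphase-promoting complex (-0.05) and 9 of 14 for condensin and cohesin (0.04). The gene of smallest p in each list without a call was Gins1 of the replicative helicase (0.42, adjusted p = 0.0664 by limma), Rfc4 of the clamp loader (0.39, 0.0762), Dtymk, a thymidylate kinase (0.30, 0.207), Ccnd1, which encodes cyclin D1 (0.32, 0.131), the kinase gene Melk (0.37, 0.309), the centromere gene Cenpm (0.48, 0.109), the kinesin gene Kif20b (-0.37, 0.0980), Anapc11 of the anaphase-promoting complex (-0.47, 0.0876) and Ncapd3 of condensin (0.39, 0.0742). None of these 9 passed the test.

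**Figure D4:**
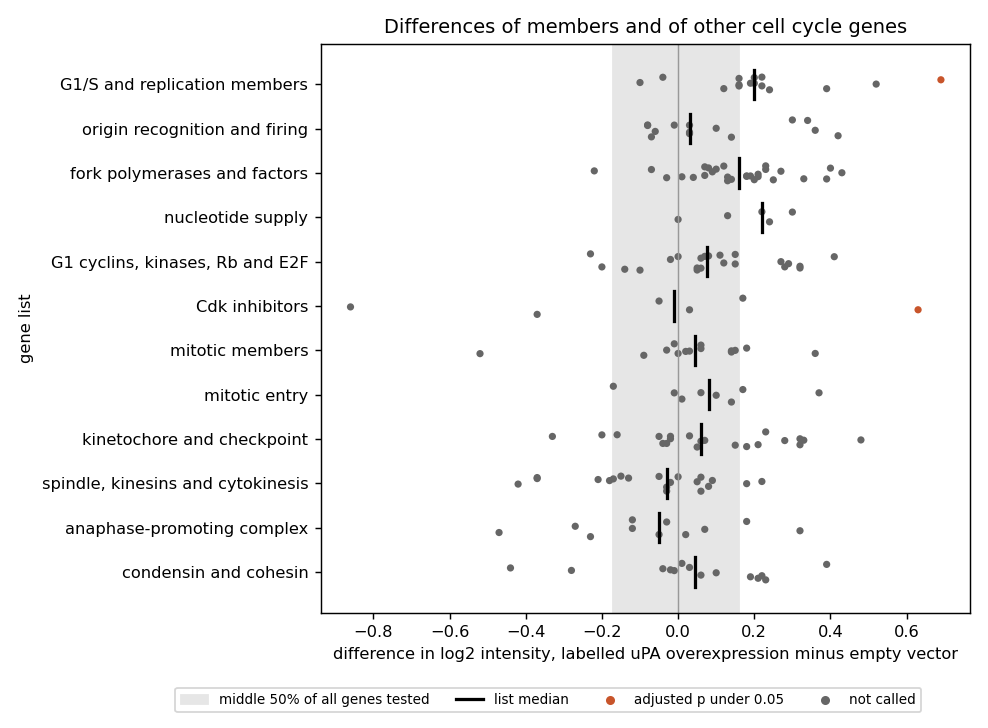
Difference in log2 intensity, labelled uPA overexpression minus empty vector (x axis), of each tested member and of each tested gene of 10 other cell cycle lists (y axis), with a bar for the list median and a band for the middle 50% of all tested genes. Ccne2 at 0.69 and Cdkn2c at 0.63, in orange, are the genes with an adjusted p under 0.05.

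Markers of several cell types also differed between the groups. Of 10 tested macrophage markers 8 rose and 0 fell, with a median difference of 0.79 and a summed intensity of 17844 to 18837 in the empty vector tumours and 29923 to 35304 in those labelled uPA. Of 10 tested epithelial markers 0 rose and 6 fell, with a summed intensity of 44849 to 50740 against 26914 to 31918. Of 7 mast cell markers 6 rose, with sums of 916 to 1293 against 2866 to 3718. Among T cell markers 5 were tested and 0 were called, with sums of 1971 to 2729 against 1995 to 2143, and Cd4 and Cd8a were not detected on enough arrays to be tested. Of 5 B cell markers 1 was tested, with a difference of 0.03. Of 4 tested neutrophil markers 1 fell, with a median of -0.58 and sums of 1459 to 2267 against 913 to 1394, and of 7 fibroblast markers 1 fell, with a median of -0.30 and sums of 12584 to 17267 against 12437 to 16413. Muscle markers had 2 tested and 0 called, with sums of 195 to 1439 against 355 to 4997, and 0 were called among the erythroid precursor, endothelial and adipocyte markers, of which 2, 4 and 2 were tested. The part of any of these cells in the values of Ccne2 or of the other members was not tested.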

How the data were processed

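Total RNA of 6 tumours was read on Illumina MouseWG-6 v2.0 BeadChips, per the labels' protocols. The deposited raw table holds an intensity per probe that is neither background-subtracted nor normalised. Its detection value is a fraction that the deposited header calls a p-value, but it rises to 1 for the brightest probes, so 1 minus it was used. A deposited processed table, made with GeneSpring GX per the series design text, gives log2 values. By column, medians of these values were 0.00227, 0.00420 and 0.00197 (empty vector 1 to 3) or 0.00332, 0.00247 and 0.00288 (uPA overexpression 1 to 3). Their direction and scale follow the raw intensities, and the level on which each probe was centred stays unknown.

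The tables name probes differently, so rows were joined by their values after quantile normalisation, accepting mutual nearest rows whose runner-up lay 3 or more times farther away. This placed 45206 of 45281 rows, all 67 probes of the members among them. In a simulated join of shuffled rows 0 were wrong, a lenient check, and no maker's probe list was at hand to check it. Gene names came from the platform annotation, for 34885 probes with 1 symbol, 18 with several and 10378 with none.

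Background was corrected by normexp from the detection values (offset 16). Intensities were then log2 transformed and quantile normalised. A probe was kept if its detection p was under 0.05 in 3 or more arrays, 20434 in all. A gene was represented by its brightest probe. Differences were fitted with limma 3.58.1 in R 4.3.3 (lmFit, eBayes, 4 residual and 3.35 prior degrees of freedom), two-sided, with Benjamini-Hochberg adjustment over 10836 genes and a threshold of 0.05. Intervals are 95% intervals of single genes. The fit was also tested on simulated data.

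The members, lists and rule for named genes were chosen with earlier results of these data known. That rule names all members, gives each array's value for called members and for up to 4 of smallest p per role, and names the called or smallest-p genes of each wider list. Mcm2, Mcm7, the Rrm2 probes and the separate arrays were singled out after their values were seen. Replicate numbers were not taken as pairs: deviations of arrays with the same number correlated at -0.11, -0.22 and 0.12 across genes.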

Additional observations from a re-analysis of the deposited data

How the results depend on the processing

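No member was called lower in any alternative, and the mitotic median stayed below the G1/S median in all 16, by 0.10 to 0.18. Array by array, that gap overlapped between the groups. The number of members called higher, 1 in the comparison as reported, was 2 (Ccne2 and Mcm3) without background correction, with offset 50, in the deposited processed values, with array weights and with a prior both trended and robust, 0 with a replicate block and 0 to 0 with an array left out. With the replicate block the adjusted p was 0.102 for Ccne2 and 0.103 for Cdkn2c, and 77 of all genes were called in place of 586. Array weights called 1070, and leaving out an array gave 33 to 604. The mitotic median was -0.03 with 75th percentile scaling, where the median of all genes was -0.05, and -0.04 to 0.11 with an array left out. Uncalled members near 0 changed sign. With 75th percentile scaling Bub1b was at -0.05, Cdc20 at -0.02, Nusap1 at -0.04 and Top2a at 0.00. With the mean of all probes Mcm7 was at 0.20, Nusap1 at -0.01 and Cenpa at 0.05, and with array weights Aurka at 0.03 and Kif11 at 0.05. With an array left out Cdt1 ran from -0.10 to 0.01, Aurka from -0.08 to 0.08, Bub1b from -0.12 to 0.12, Cdc20 from -0.01 to 0.13, Tpx2 from -0.05 to 0.06, Kif11 from -0.11 to 0.09, Nusap1 from -0.02 to 0.09 and Top2a from -0.05 to 0.13. The cause of these changes was not tested.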
